A study of Ovis aries with 10 samples.

Results

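The genes described here are 141 of the 23020 sheep genes in the deposited table, those whose RNA in the endometrium was lowered 2- to 4-fold in ewes given RU486. A gene was taken when its mean in the progesterone group (P4) was at least 1 FPKM (reads scaled by gene length and library size, the reading of the unit used here), when that mean was at least 2 and under 4 times the mean under RU486, and when the lowest P4 ewe lay above the highest RU486 ewe. All 10 ewes had been ovariectomized and received progesterone at 50 mg per day over 14 days. In the group called P4 (n = 5) they received no RU486. In the group called P4+RU486 (n = 5), daily injections of 50 mg RU486 were added from day 8 and both went on to day 14. No source used here gives the ewes' age or breed. PolyA RNA came from endometrium dissected off the uterus, and each library is 1 ewe.

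Progesterone is the hormone of the luteal phase and of pregnancy. It acts through its nuclear receptor, a transcription factor in uterine stroma, muscle and epithelium, and in ruminants long exposure to it goes with loss of that receptor from the uterine epithelium while the glands begin to secrete the fluid that feeds the early conceptus. RU486 (mifepristone) binds the same receptor, and also the glucocorticoid receptor, as an antagonist. The series asks how progesterone regulates vesicles and gene expression in the sheep uterus, and RU486 given on top of progesterone shows which transcripts are lower when receptor action is opposed. The table gives Ensembl identifiers with no gene names, and none of the 23020 identifiers matched the RefSeq gene table used here. What the 141 genes encode is therefore not described, 2 of them are named by identifier, and the labelled tissue was not checked against marker genes. In dissected tissue, fewer cells of a type and less RNA per cell cannot be told apart.

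The libraries differed in 2 ways that touch these genes. P4+RU486 replicate 2 had the highest summed expression, 965174 FPKM, against 680815 to 803425 FPKM in the other 9 ewes, and the most genes at 0, 3904. P4 replicate 3 had the lowest relative sequencing depth, estimated from rarely seen genes, at 0.793, against 1.04 to 1.12 in the other P4 ewes and 0.889 to 1.14 in P4+RU486. Absolute depth is unknown. The 75th percentile of the values was nearly equal in all libraries, from 22.04 to 22.79 FPKM, so a scaling beyond library size may have been applied, and sums of FPKM are compared between ewes with that limit. Summed expression, genes at 0 and the share of the 100 most abundant genes were not shown to differ between the groups (exact permutation tests, two-sided, p = 0.714, 0.444 and 0.135, adjusted p = 0.714, 0.667 and 0.405 over these 3, where 0.00794 is the smallest unadjusted p possible).

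The 141 genes ranged from rare to very abundant transcripts. Their P4 means ran from 1.14 to 1572 FPKM with a median of 21.2 FPKM, and their P4+RU486 means from 0.296 to 739 FPKM with a median of 7.82 FPKM. In P4, 45 of them lay under 10 FPKM, 73 from 10 to under 100 FPKM, and 23 at 100 FPKM or more. The last class held 16.3% of the 141 genes and 7.68% of the 15004 genes with a P4 mean of at least 1 FPKM, a difference that was not tested. The classes use the P4 mean, the group in which the rule makes these genes higher, so the difference may follow from the choice. By the median P4 mean the 141 genes lay above the 15004 genes, 21.2 against 15.8 FPKM. By the median P4+RU486 mean they lay below, 7.82 against 15.5 FPKM. The minimum of 1 FPKM applied to P4 alone, the group in which these genes are high, so genes that are rare in both groups could not enter.

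The falls were spread over the whole band, with fewer genes at larger ratios. The ratio of the P4 mean to the P4+RU486 mean had a median of 2.60 and quartiles of 2.26 and 3.15, which corresponds to RNA levels lower by a median of 61.6%. The ratio was under 2.5 in 61 genes, from 2.5 to under 3 in 35, from 3 to under 3.5 in 26 and from 3.5 to under 4 in 19. Its median was 2.77 in the genes under 10 FPKM, 2.496 in the middle class and 2.55 in the abundant class. Across the 141 genes the Spearman rank correlation of the ratio with the P4 mean was -0.160, a description over genes measured in the same 10 libraries. These values chose the genes and are not a test of the effect of RU486.

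The bounds cut through a continuous range. The smallest ratios inside were 2.006, 2.009 and 2.014, and the largest below the bound were 1.995, 1.994 and 1.989. At the upper bound the last genes inside had ratios of 3.99, 3.97 and 3.96 and the next outside 4.02, 4.03 and 4.03. The lowest P4 means inside were 1.14, 1.17 and 1.18 FPKM, and 0.944, 0.92 and 0.912 FPKM just outside. Of the 410 genes with a ratio in the band, 141 (34.4%) had no overlap between the groups and 269 did. The narrowest separation inside was a lowest P4 ewe at 1.001 times the highest P4+RU486 ewe, and the closest gene outside was at 0.993.

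**Figure D1:**
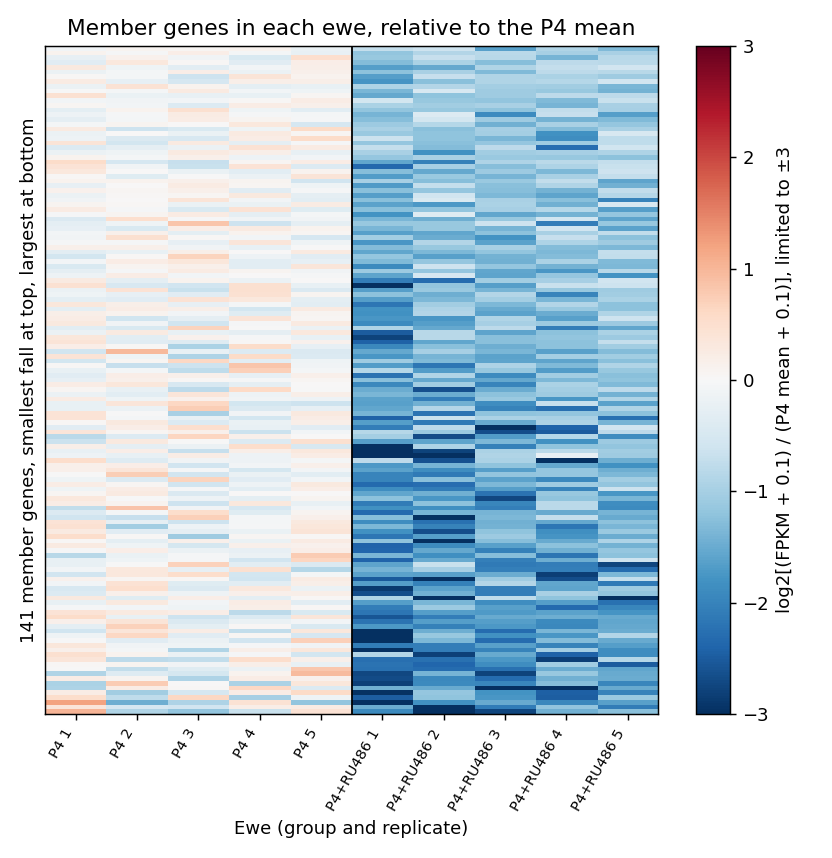
Each of the 141 genes (rows, ordered from the smallest ratio of means at the top to the largest at the bottom) in each of the 10 ewes (columns), coloured by the log2 ratio of its FPKM to its P4 mean, with 0.1 FPKM added to both and the colour limited to 3 either way. The P4 columns scatter around 0 and the P4+RU486 columns are below 0 throughout, and P4+RU486 replicate 1 was the lowest ewe of its group in 54 of 137 genes.

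Summed over the 141 genes, expression averaged 10814 ± 851 FPKM under P4 alone against 4183 ± 705 FPKM with RU486 added (SD, n = 5 each). The sums of P4 replicates 1 to 5 were 9604, 11439, 11605, 11155 and 10268 FPKM. Those of P4+RU486 replicates 1 to 5 were 3571, 5163, 3427, 4429 and 4325 FPKM. Within P4+RU486 the highest sum was thus in replicate 2, the library with the highest total. As a share of each library's total, they took 1.45% ± 0.0760 under P4 alone against 0.539% ± 0.0705 with RU486 added (SD, n = 5 each), and by this measure replicate 2, at 0.535%, lay between the lowest ewe of its group, replicate 1 at 0.466%, and the highest, replicate 5 at 0.614%. The 3 most abundant genes carried 35.6% of the P4 sum and 35.6% of the fall, and the 23 genes of at least 100 FPKM carried 71.8% and 72.1%. The rule puts every P4 ewe above every treated ewe in each gene, so the sums had to differ. Neither the sums nor the library shares test the effect of RU486. The rule also bounds the fall of each gene, which keeps shares of the sum and of the fall near each other.

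ENSOARG00000010041 was the most abundant of the 141 genes. Its values in P4 replicates 1 to 5 were 1407, 1534, 1861, 1539 and 1518 FPKM. In P4+RU486 replicates 1 to 5 they were 600.1, 1192, 427, 974 and 502 FPKM. All P4 ewes lay within a narrow band, and the treated ewes were spread widely below it, with replicates 2 and 4 nearest to P4. The group means of 1572 ± 170.4 FPKM (P4) and 739 ± 329 FPKM (P4+RU486, both SD, n = 5) stood in a ratio of 2.13. On the log2(FPKM + 1) scale the fall was -1.19 (SE 0.28, 95% interval -1.82 to -0.56), and the gene did not pass the threshold of the genome-wide fit (limma, Benjamini-Hochberg adjusted p = 0.0592). Without P4+RU486 replicate 2 it did (limma adjusted p = 0.0157), and over all alternatives the limma adjusted p lay between 0.0136 and 0.137. Leaving out that ewe also raised the genes called over the whole table from 557 to 1024, so the gained call is not particular to this gene.

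ENSOARG00000012256 had the widest separation of the groups among the 141 genes. Its values in P4 replicates 1 to 5 were 90.2, 66.8, 64.8, 69.6 and 66.0 FPKM. In P4+RU486 replicates 1 to 5 they were 16.7, 16.9, 23.01, 17.9 and 22.8 FPKM. The groups lay far apart, with a lowest P4 ewe at 2.82 times the highest treated ewe, and P4 replicate 1 stood above the other P4 ewes. The group means of 71.5 ± 10.6 FPKM (P4) and 19.5 ± 3.20 FPKM (P4+RU486, both SD, n = 5) stood in a ratio of 3.67. On the log2(FPKM + 1) scale the fall was -1.83 (95% interval -2.11 to -1.55, SE 0.13, limma adjusted p = 0.000198), and it stayed between -1.89 and -1.64 over all alternatives (limma adjusted p between 5.6e-05 and 0.00132). Both genes were picked by these values from genes chosen for the same contrast, so the p-values describe them and add no support.

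**Figure D2:**
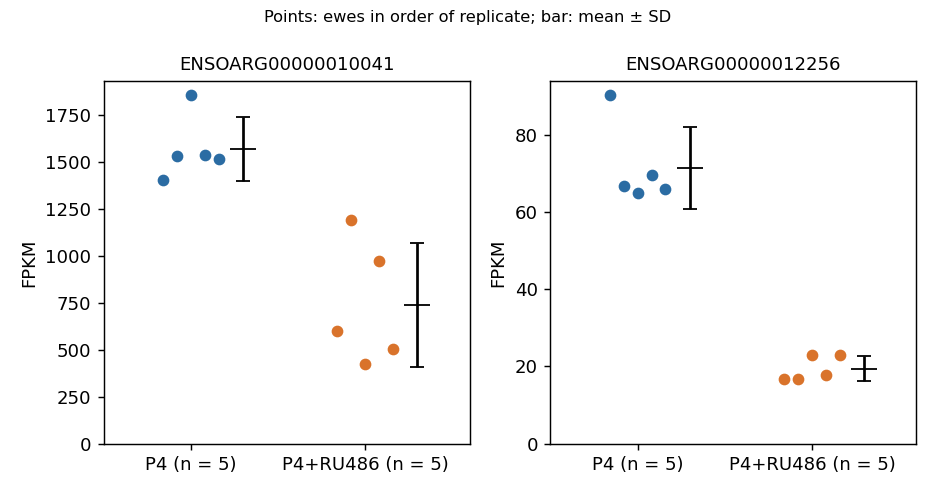
FPKM of the most abundant gene (left) and of the gene with the widest separation (right) in P4 and P4+RU486, on linear axes from 0, with 1 point per ewe in order of replicate and bars for the mean ± SD. The treated ewes of the left gene spread from 427 to 1192 FPKM, and those of the right gene sit between 16.7 and 23.01 FPKM.

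In the fit over all 23019 genes with a value above 0, 108 of the 141 genes were called lower (limma, adjusted p under 0.05), and 33 were not. Over all genes tested 1.39% were called lower, and 2.42% in either direction. The rule used the same contrast, so nothing is read from the difference between these shares. Likewise, all 141 were chosen for a lack of overlap, which 3.63% of the 15004 genes with a P4 mean of at least 1 FPKM showed in this direction. The 141 genes had a median log2 fold change of -1.19, and the median over all genes with a P4 mean of at least 1 FPKM was -0.01. The 108 called genes made up 33.9% of the 319 genes called lower in the whole table.

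The 33 uncalled genes were mostly rarer and more variable between ewes. Their median P4 mean was 7.36 FPKM, against 30.9 FPKM in the called genes. Their median ratio of means was 2.71, against 2.57 in the called genes. Their median coefficient of variation (SD over mean) was 0.327 in P4 and 0.453 in P4+RU486, against 0.222 and 0.291 in the called genes. Their limma adjusted p ran from 0.0501 to 0.203. Of the genes under 10 FPKM in P4, 27 of 45 were called, of the middle class 63 of 73 and of the abundant class 18 of 23. The added 1 FPKM reduces the log2 fold change of the rare genes, whose median was -0.88 against -1.37 in the abundant ones. Which genes are called depends on single ewes. The count of 108 fell to 63, 65, 55 and 55 without P4 replicate 1, 2, 4 or 5 and to 58 without P4+RU486 replicate 3. It was 93 without P4 replicate 3, and 72, 107, 79 and 101 without P4+RU486 replicate 1, 2, 4 or 5. Over all genes, in either direction, the count of 557 became 222, 234, 523, 181 and 183 without P4 replicates 1 to 5 in turn. It became 250, 1024, 202, 360 and 559 without P4+RU486 replicates 1 to 5, so these changes were not particular to the 141 genes. Each of these fits also has 1 ewe fewer. Whichever ewe was left out, 47 of the 141 genes kept their call.

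**Figure D3:**
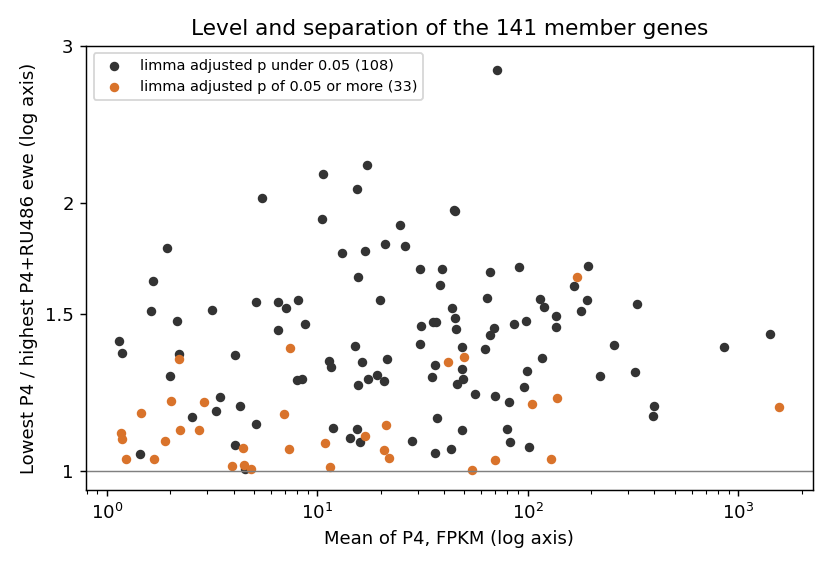
Each point is 1 of the 141 genes, placed by its P4 mean in FPKM and by the ratio of its lowest P4 ewe to its highest P4+RU486 ewe (both axes logarithmic). Black points (108) passed a limma adjusted p of 0.05 and orange points (33) did not, and the orange points crowd along the lower edge, where the median ratio was 1.09 against 1.39 for the black points.

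For most of the 141 genes the groups were separated by a small margin. The lowest P4 ewe was at a median of 1.32 times the highest P4+RU486 ewe. The margin was above 1.1 in 114 genes, above 1.5 in 38 and above 2 in 5. Variation between ewes was larger than in the table as a whole. The median coefficient of variation of the 141 genes was 0.246 in P4 and 0.317 in P4+RU486, and over the 15004 genes it was 0.154 and 0.225. Relative to the mean, the treated ewes varied more than the P4 ewes in 91 of 141 genes (64.5%) and in 74.4% of all genes with a defined value. On the raw scale the SD was larger in P4 in 124 of the 141 genes. The rule bounds how far treated ewes can rise and P4 ewes can fall, so it limits these spreads in part. A required ratio of at least 2 may also favour genes that vary between ewes, so nothing is read from the difference from all genes. They were not tested.

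The treated ewes were not equally low. Relative to the P4 mean of each gene, the median level of the 141 genes was 31.3% in P4+RU486 replicate 1, 36.5% in replicate 2, 37.5% in replicate 3, 40.4% in replicate 4 and 42.5% in replicate 5. In P4 these medians lay between 92.3% in replicate 3 and 101.4% in replicate 5. Replicate 1 was the lowest treated ewe in 54 of the 137 genes without ties (39.4%), against 18.2% of all genes with a P4 mean of at least 1 FPKM. Replicate 5 was the highest treated ewe in 48 of 141 genes (34.0%), against 17.7% of all genes. Replicate 2, by contrast, was the most extreme treated ewe over all genes, lowest in 32.8% and highest in 30.7%, but in the 141 genes it was lowest in 19.7% and highest in 21.3%. The no-overlap rule also shapes which treated ewe is highest or lowest among the genes taken, and without replicate 2 it took 184 genes. These differences between shares were not tested.

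The same order was seen when each ewe was set against the median of the other 4 ewes of its group. In P4+RU486 replicate 1, 105 of the 141 genes (74.5%) were below that median, and 51 (36.2%) were over 1.5-fold below, against 50.5% and 11.2% of all genes. In replicate 5, 40 genes (28.4%) were below, and 34 (24.1%) were over 1.5-fold above, where all genes gave 48.2% and 8.70%. The genes low in replicate 1 and those high in replicate 5 shared 16 genes. These are 31.4% of the first set, where 24.1% of the 141 were high in replicate 5, and 47.1% of the second, where 36.2% of the 141 were low in replicate 1, so no relation between the sets is read from them. P4 replicate 3 had the most low values in its group, 29 genes (20.6%) over 1.5-fold below, against 11.6% of all genes. Over all genes it had the most as well, where the other P4 ewes had 4.61% to 8.25%. It was the lowest P4 ewe in 29.8% of the 141 genes and in 30.7% of all genes. The rule shapes these shares as well, and their differences from all genes were not tested.

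**Figure D4:**
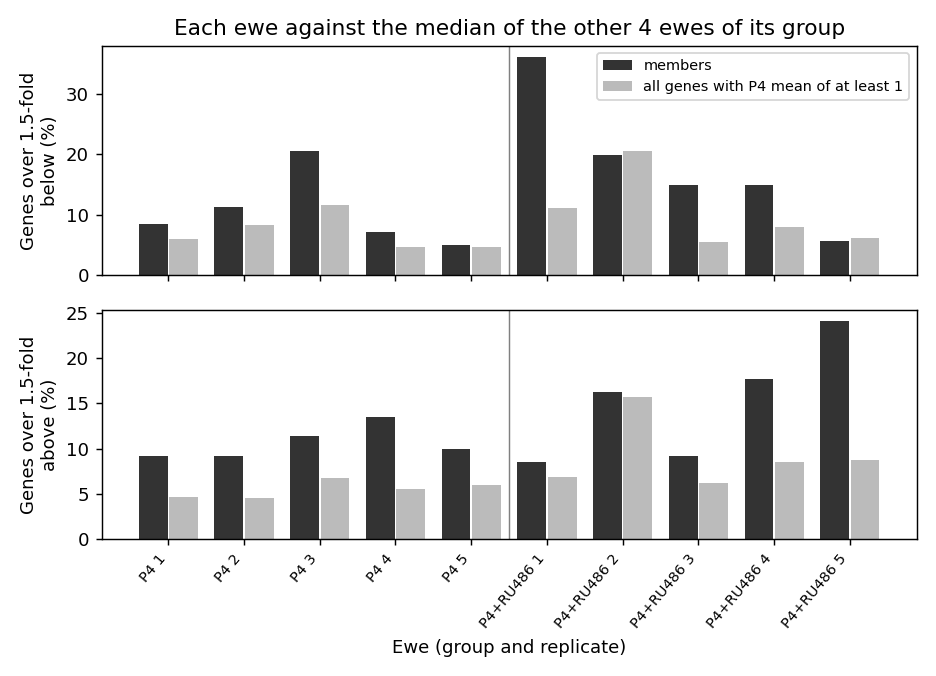
For each ewe, the percentage of genes over 1.5-fold below (top) and over 1.5-fold above (bottom) the median of the other 4 ewes of its group, for the 141 genes (black) and for all 15004 genes with a P4 mean of at least 1 FPKM (grey). The tallest black bars are P4+RU486 replicate 1 in the top panel, at 36.2%, and replicate 5 in the bottom panel, at 24.1%, and in replicate 2 the black and grey bars are alike.

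Single genes departed further. In 1 abundant gene with a P4 range of 116 to 283 FPKM, P4+RU486 replicate 1 was at 1.14 FPKM and the other treated ewes at 34.7 to 70.0 FPKM. In another gene replicate 5 reached 17.1 FPKM against 3.44 to 13.3 FPKM in the other treated ewes, close under its lowest P4 ewe of 18.5 FPKM. Among P4 ewes the largest departure was a gene at 50.6 FPKM in replicate 1 and 7.80 to 29.5 FPKM in the others. These 3 genes had at least 10 FPKM in P4 and were picked after their values were seen, as the largest departures of 1 ewe from its group.

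After the mean of each group was taken out, P4+RU486 replicate 1 stood furthest from the other ewes on the main axis of what was left in the 141 genes. The first principal component of these deviations held 33.1% of their variance, and over the 15004 genes the first component held 30.6%. On a scale of log2 units per gene, replicate 1 scored 0.551, the other treated ewes -0.246 to -0.027 and the P4 ewes -0.132 to 0.204. Genes were not scaled to equal variance, so the gene described above with replicate 1 at 1.14 FPKM weighs on this score. Its part in the score was not tested. Of the 141 genes, 98 ran low where this score is high and 43 ran high. In contrast, the first component over all genes had its largest score, 0.421, in P4+RU486 replicate 2, and replicate 1 scored 0.049 there. Without replicate 2 the share of the first component among the 141 genes was 39.4%. Deviations of 2 genes correlated at a median of 0.065 over the 9870 pairs, a weak relation across 10 shared libraries, and at -0.003 over pairs of all 15004 genes.

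Each ewe was also examined on genes it had no part in choosing. The rule was applied to the other 9 ewes, which gave between 145 and 199 genes, and the ewe left out was placed per gene between the mean of the other P4 ewes (position 0) and that of the other P4+RU486 ewes (position 1) on the log2(FPKM + 1) scale. The median positions of P4 replicates 1 to 5 were 0.101, 0.0299, 0.298, 0.102 and 0.0171. Those of P4+RU486 replicates 1 to 5 were 1.15, 0.877, 0.951, 0.764 and 0.676. By median position every ewe lay nearer to its own group, and the groups did not overlap. P4 replicate 3 and P4+RU486 replicate 5 were the closest to each other. The median positions averaged 0.110 ± 0.112 in left-out P4 ewes and 0.884 ± 0.183 in left-out treated ewes (SD, n = 5 each). Single genes were less uniform. The share of genes nearer to the ewe's own group was 63.3% to 90.2% in P4 and 66.7% to 93.1% in P4+RU486. It was lowest in P4 replicate 3 and P4+RU486 replicate 5. Positions share ewes, so no p is given.

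In these genes the ewe left out differed from the other group by a median of 1.92- to 3.15-fold, where 2- to 4-fold was required of the means of the other 9. The median ratio of the P4 mean to the left-out treated ewe was 3.15 for replicate 1, 2.23 for replicate 2, 2.60 for replicate 3, 2.15 for replicate 4 and 1.92 for replicate 5. For left-out P4 ewes the ratio to the P4+RU486 mean lay between 1.94, in replicate 3, and 2.49, in replicate 5. A treated ewe left out was below every P4 ewe in 75.1% to 91.8% of the genes, and over all genes with a P4 mean of at least 1 FPKM in 19.7% to 33.7%. A P4 ewe left out was above every treated ewe in 69.8% to 91.5% of the genes, against 13.8% to 22.5% of all genes. The genes were chosen because the other 9 ewes already separate on them, and all genes were not. The shares over all genes are therefore not a baseline, and nothing is read from the difference. The lowest share in P4 was that of replicate 3, the shallowest library. In P4+RU486 the relative depths of replicates 1 to 5 were 0.893, 0.889, 0.939, 1.14 and 1.09, so the ewes with the highest positions were also the shallower ones. The part of depth in these positions was not tested.

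The position of an ewe was not the same for other sets of genes chosen in the same way. For genes lost at least 4-fold (59 with all ewes), P4+RU486 replicates 1 to 5 lay at 0.965, 0.857, 1.02, 0.943 and 0.838, so replicate 3 and not replicate 1 was highest. For genes raised at least 2-fold without overlap, they lay at 0.912, 0.556, 0.810, 0.873 and 0.729, and replicate 2 was lowest. The raised genes too needed a P4 mean of at least 1 FPKM, although P4 is their lower group. Genes rarer than that in P4 could not enter, and no upper bound was set on their ratio. P4 replicate 3 was at 0.177 on the genes lost at least 4-fold and 0.281 on the raised genes. The genes lost at least 4-fold also varied more between ewes than the 141, with median coefficients of variation of 0.427 in P4 and 0.583 in P4+RU486. They were rarer, with a median P4 mean of 9.55 FPKM. These sets come from the same ewes, and the differences between them were not tested.

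**Figure D5:**
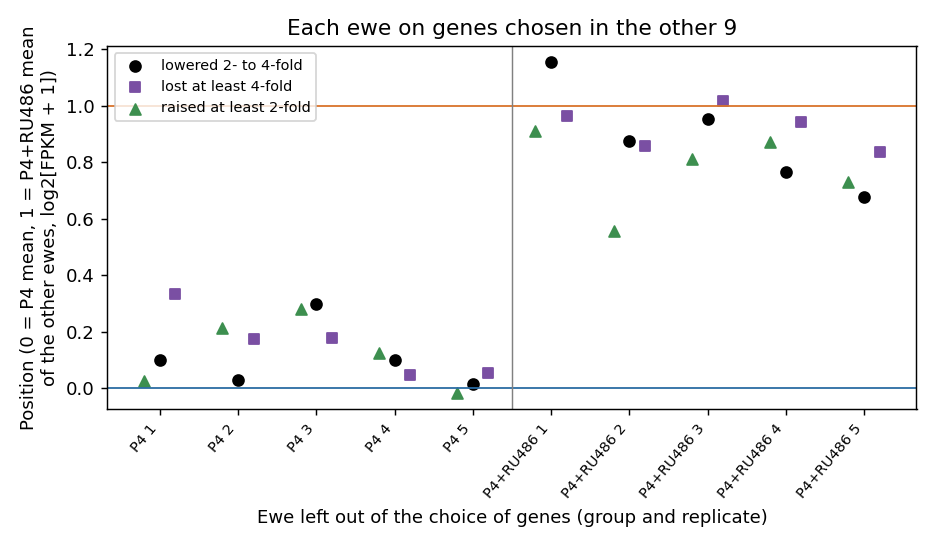
Median position of each ewe on genes chosen in the other 9 ewes, where 0 is the mean of the other P4 ewes and 1 that of the other P4+RU486 ewes on the log2(FPKM + 1) scale. Black circles are genes lowered 2- to 4-fold, purple squares genes lost at least 4-fold and green triangles genes raised at least 2-fold. The black circles run from 0.0171 to 0.298 in P4 and from 0.676 to 1.15 in P4+RU486.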

How the data were processed

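Endometrial polyA RNA of 10 ewes was sequenced, 5 per group, with groups taken from each sample's treatment label. Replicate numbers follow sample order and pair nothing. Per the submitters' processing notes, the genome build was Oar_v3.1 and the tools were HISAT2 2.0.3, featureCounts 1.5.0, cutadapt 1.11 and edgeR, listed without their roles. Annotation, gene filters and the scaling of libraries are not stated there. The values deposited by the authors, rounded to 2 decimals, carry no named unit and are read as FPKM, because they are not whole, sum differently per ewe and, in the 1353 genes above 0 in 1 ewe, spread from 0.022 to 0.618 (10th to 90th percentile). TPM with genes removed would look alike. The adjusted p-values deposited by the authors were not used.

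All 23019 genes above 0 in some ewe were fitted as log2(FPKM + 1) with limma 3.58.1 (R 4.3.3, variance trend, 1 group term, Benjamini-Hochberg threshold of 0.05). Tested on simulated data for this comparison (23019 genes), the step recovered 62% of 100 genes lowered by 1 and 97% of 100 lowered by 2 on the log2 scale, with 5 false calls. The changed genes all had a mean log2(FPKM + 1) of at least 1. Noise was drawn separately for each gene and ewe, without the deviations that genes share in the real libraries. These rates may therefore not hold for the real data. Relative depth was the most frequent ratio of values among rarely seen genes. Depth is unknown, so no counting intervals are given. Members and lists were chosen with earlier results of these data known. The rule for named genes, without symbols, gave the most abundant gene and the one with the widest separation. The 10 gene lists and the cell type markers could not be used without names. Alternatives were other pseudocounts, filters, scalings, array weights, forms of the rule and leaving out each ewe.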

Additional observations from a re-analysis of the deposited data

Results flagged for a closer look

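Within each group of 5 ewes, values were searched with Dixon's ratio for 1 ewe far from the rest. Chance marks about 1 in 20 groups, or about 1.8 of the 36 searched, and 5 were found. The measures are related, so these numbers are not a test. The values of P4+RU486 replicate 2 summed to 965174 FPKM, where those of the other treated ewes summed to 704242 to 765735 FPKM. The relative depth of P4 replicate 3 was 0.793, where the other P4 ewes had 1.04 to 1.12, and on genes chosen without it 69.8% of its values lay above every treated ewe, against 85.7% to 91.5% in the other P4 ewes. On the first component of deviations within groups among the 141 genes, P4+RU486 replicate 1 scored 0.551, against -0.246 to -0.027. For ENSOARG00000012256, P4 replicate 1 was at 90.2 FPKM, against 64.8 to 69.6 FPKM.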

How the results depend on the processing

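No paired analysis was possible because the labels carry no replicate numbers. Of 105 alternatives run for results other than the 2 named genes, 88 stayed within the limits set (counts within 1.5 times, other values within their spread). Some of the 88 could not move, because leaving out an ewe of 1 group does not change the spread of the other. For the spreads and the first-component share, the limit itself came from the sets with 1 ewe left out. The count of genes called over all genes stayed within the limits in 7 of 16 alternatives. Array weights gave 1312 called genes, against 557, and 124 of the 141 called lower. Allowing single ewes to overlap gave 347 genes, which include all 141, and the other forms of the rule gave 109 to 151. Leaving out 1 ewe gave 181 to 1024 called genes, 55 to 107 of the 141 called lower, 145 to 199 genes meeting the rule, a median coefficient of variation in P4 of 0.209 to 0.247 and a first-component share of 31.3% to 39.4%. In every set of 9 ewes 92 of the 141 met the rule. For ENSOARG00000010041 the call was gained with the filter on mean expression, quantile normalisation, array weights or without P4+RU486 replicate 2 (limma adjusted p = 0.0281, 0.0173, 0.0136 and 0.0157). Depth is unknown, which leaves the precision of the rarest genes unstated beyond the spread between ewes.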
